A study of Mus musculus with 24 samples.

Results

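Atf4 and 9 genes that work with it or downstream of it in the stress response were followed in alveolar macrophages given IL-13, IL-33 and IL-17A. The 10 genes, chosen by name from the 17017 in the deposited tables, were the transcription factors Atf4, Atf3 and Ddit3, the feedback regulators Ddit4, Trib3 and Sesn2, and the amino acid and glutathione genes Asns, Chac1, Slc3a2 and Slc7a5. All 10 were in the tables and all passed the filter on low values. The cells were primary alveolar macrophages of wild-type BALB/cJ mice, taken 20 h after stimulation. The groups of 3 libraries each received rIL-33 with rIL-13 and rIL-17A, rIL-33 with rIL-13, rIL-13 with rIL-17A, rIL-13, rIL-33 with rIL-17A, rIL-33 or rIL-17A (r for recombinant), or were left untreated. The 24 libraries fell into 8 groups, and 12 libraries had IL-13 and 12 had none. Whether replicate libraries come from different mice or wells is not stated in the labels, so p-values cover the spread from library to library, some or all of which may be technical.

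In the integrated stress response, kinases that sense unfolded protein, missing amino acids, viral RNA or loss of haem phosphorylate the initiation factor eIF2. Translation then slows in general while that of Atf4 rises, so that much of Atf4's control acts on its protein and not on its RNA. Atf4 binds DNA with C/EBP-family partners and switches on genes for amino acid import and synthesis, tRNA charging and redox balance, together with Ddit3 (CHOP) and Trib3, which restrain or end the response. RNA levels, the only quantity measured here, do not show eIF2 phosphorylation or Atf4 protein.

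The libraries held 9.13 to 12.9 M recovered reads (median 10.6 M), with 11569 to 12204 genes at 1 TPM or more and 0.771% to 1.08% of reads from mitochondrial genes. The first principal component (26.4% of the variance) parted the libraries with IL-13 from those without. On the second (8.89%) 3 libraries stood apart, namely Untreated replicate 1, IL-17A replicate 2 and IL-33+IL-13+IL-17A replicate 2. TPM was computed by the authors over the whole gene span, introns included, so TPM serves to compare a gene across libraries, but not to rank one gene above another. The macrophage genes Siglecf (257 to 548 TPM), Itgax (1552 to 2524 TPM) and Cd68 (7769 to 9874 TPM) were high in every library, whereas the alveolar macrophage genes Marco (0.149 to 0.799 TPM) and Car4 (0 to 2.72 TPM) were near 0.

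Markers of alveolar macrophages and of other cell types differed with IL-13. The sum of 19 alveolar macrophage markers was 28363 to 30200 TPM with IL-13 and 23566 to 25922 TPM without, led by Cd68. Of the 18 tested, averaged over the groups without and with the other cytokines, 11 were higher and 7 lower (limma adjusted p under 0.05). Of all genes 20.01% were higher and 30.9% lower. Of the markers listed, 8 of 12 for epithelium, 6 of 10 for fibroblasts, 5 of 8 for dendritic cells, 3 of 12 for granulocytes and mast cells, 5 of 8 for endothelium and 2 of 12 for lymphocytes were summed, and 0 of them were at 0 TPM in every library. The epithelial marker sum was 55.5 to 68.5 TPM with IL-13 and 26.6 to 31.8 TPM without, led by Cdh1 at 24.2 to 41.1 TPM against 2.89 to 4.60 TPM, while Epcam was 0.641 to 1.66 TPM with IL-13 and 2.01 to 2.92 TPM without. The fibroblast sum was 13.5 to 24.2 TPM with IL-13 and 8.44 to 11.8 TPM without, led by Fn1, while Pdgfra was 1.995 to 4.003 TPM with IL-13 and 4.26 to 6.32 TPM without, with Col1a1 at no more than 0.389 TPM and Dcn at no more than 0.132 TPM in any library. The dendritic cell sum was 20.0 to 28.8 TPM with IL-13 and 6.97 to 9.14 TPM without, led by Batf3, and Xcr1 did not exceed 0.201 TPM. The granulocyte and mast cell sum was 67.3 to 127 TPM with IL-13 and 136 to 177 TPM without, led by S100a8. The endothelial sum was 6.44 to 12.02 TPM with IL-13 and 8.45 to 12.4 TPM without, and the lymphocyte sum did not exceed 1.19 TPM. The summed dissociation and immediate early genes stood at 3569 to 4098 TPM with IL-13 and 3188 to 3550.3 TPM without. The part of these cells and genes in the results on IL-13 was not tested, and in bulk RNA fewer cells of a type and less RNA per cell cannot be told apart.

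IL-13 raised 9 of the 10 genes, all but Sesn2, when its effect was averaged over the 4 backgrounds (none, IL-17A, IL-33, and IL-33 with IL-17A). No gene of the set was lower. Of all 13215 genes tested, 20.01% were higher and 30.9% lower in the same comparison. The set and the gene lists below were chosen with earlier results of these data known. The shares of all genes therefore give a scale for these counts and no test of them. The median log2 difference was 0.31 over the 10 genes and −0.05 over all genes. In this average the largest increase was 84.8%, for Ddit4. The transcription factors gained 20.4% to 27.3%, and Asns, Chac1 and Slc7a5 gained 46.0% to 57.7%. Genes were called at a limma adjusted p under 0.05 (Benjamini-Hochberg over all genes tested), with log2 differences on the log2(TPM + 1) scale.

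**Figure D1:**
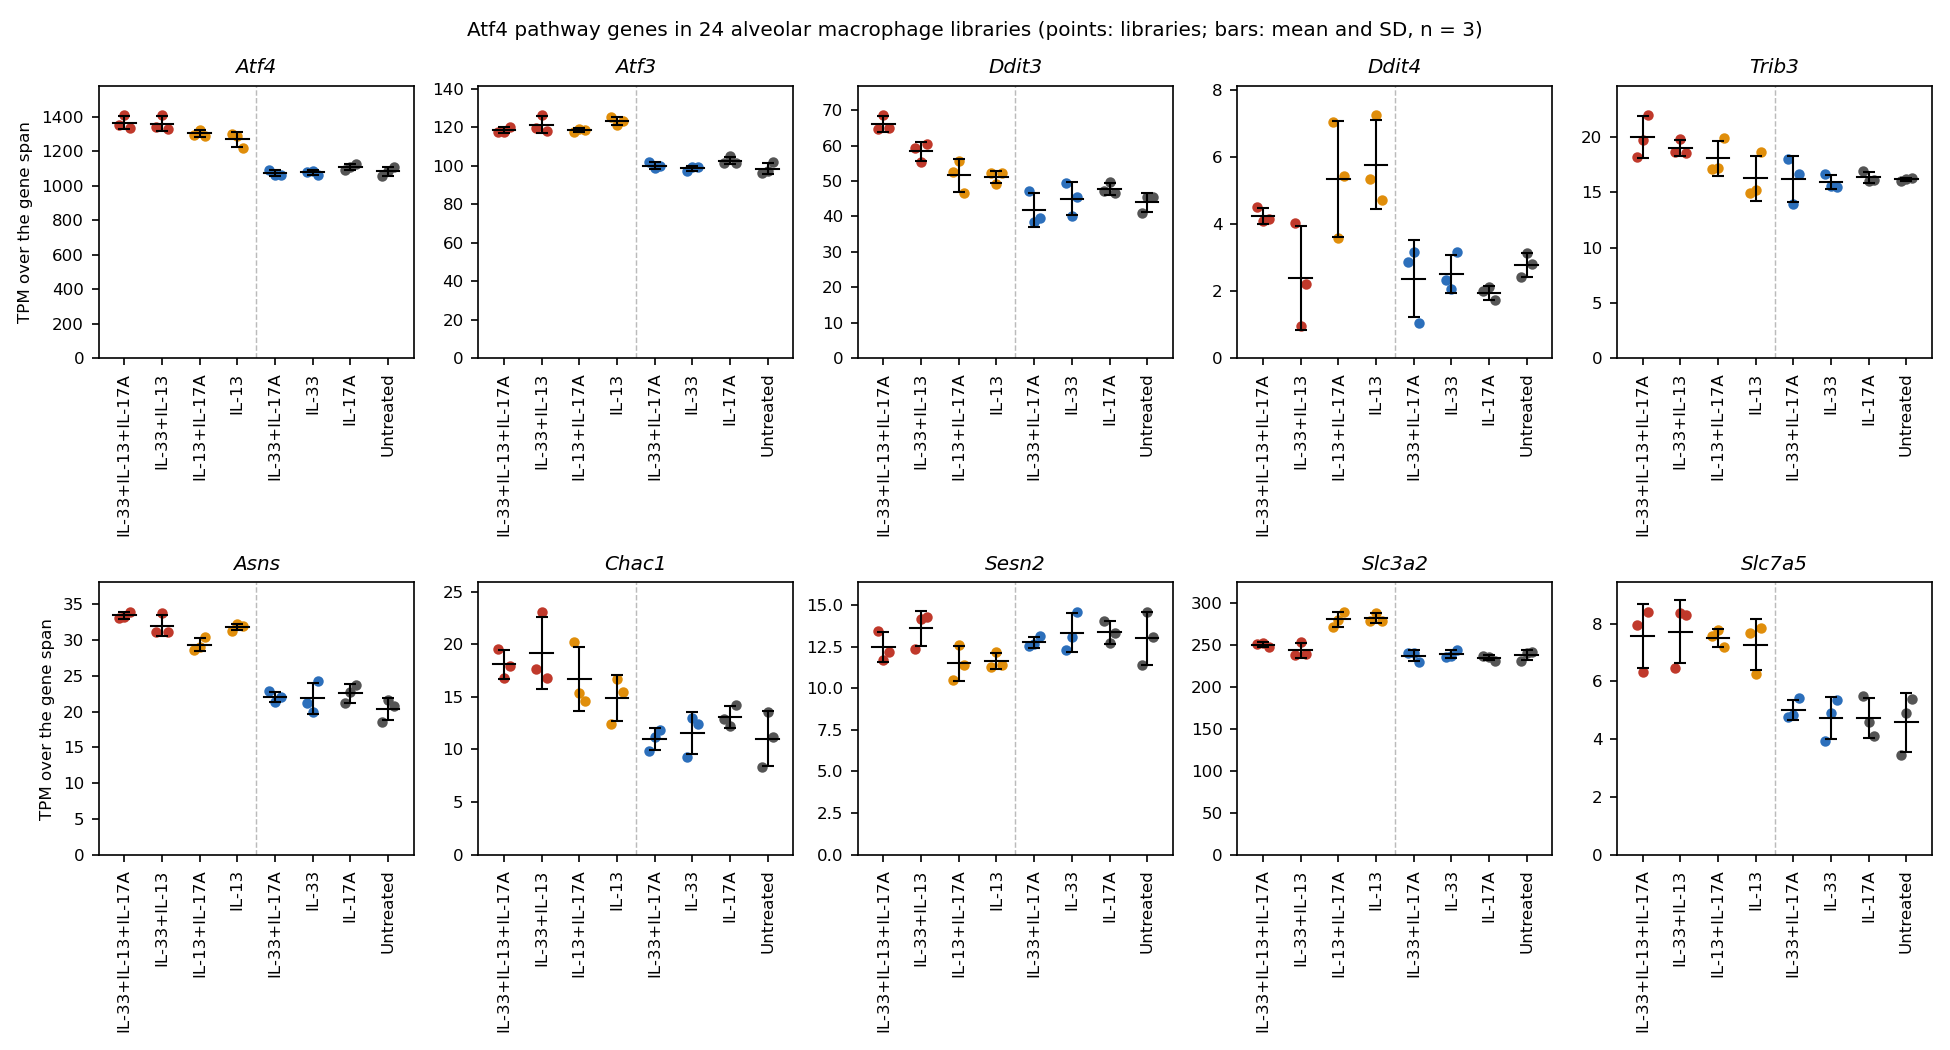
TPM of each gene in the 24 libraries (points), with the mean and SD of the 3 libraries of each group; groups with IL-13 stand left of the dashed line and untreated cells at the right end. For Atf4, Atf3, Asns and Slc7a5 every library left of the line lies above every library right of it, and Slc3a2 is highest in the groups given IL-13 without IL-33.

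Atf4, the central transcription factor of the response, lies on chromosome 15 (mm10, chr15:80255184-80257541, plus strand). It stood at 1298, 1291 and 1221 TPM with IL-13, against 1056, 1084 and 1110.4 TPM in untreated cells. All 3 IL-13 libraries were above all 3 untreated ones. Mean Atf4 was 1270.1 ± 42.6 TPM with IL-13 and 1084 ± 27.1 TPM in untreated cells (SD, n = 3 each), a log2 difference of 0.23 (SE 0.028, adjusted p = 3.74e-06). Across all backgrounds Atf4 spanned 1221 to 1409.6 TPM with IL-13 (median 1328, n = 12) and 1056 to 1126 TPM without (median 1086, n = 12). The averaged log2 difference was 0.29 (SE 0.014, adjusted p = 2.36e-12), or 22.1% more RNA.

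Atf3, a bZIP factor that Atf4 induces and that represses many inflammatory genes, lies on chromosome 1 (chr1:191170296-191218039, minus strand). It stood at 125 TPM, 121 TPM and 123 TPM with IL-13, against 96.3, 97.0 and 102 TPM in untreated cells. The groups did not overlap, and the IL-13 libraries lay within a few TPM of each other. The log2 difference was 0.32 (SE 0.029, adjusted p = 5.49e-08). With IL-13 the 12 libraries spanned 117 to 126 TPM (median 119), and without it they spanned 96.3 to 105 TPM (median 99.5). The averaged log2 difference was 0.26 (SE 0.014, adjusted p = 1.00e-11), or 20.4%. Adding IL-33, IL-17A or both to IL-13 left Atf3 group means between 118 and 123 TPM, with overlap between neighbouring groups.

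Ddit3, the factor CHOP that promotes cell death in prolonged stress, lies on chromosome 10 (chr10:127290774-127296288, plus strand). It stood at 52.1, 49.2 and 52.2 TPM with IL-13, against 41.0, 45.5 and 45.5 TPM in untreated cells. The groups did not overlap, but the log2 difference of 0.22 (95% interval 0.05 to 0.39, adjusted p = 0.0522) was not called. Averaged over the 4 backgrounds it was 0.34 (SE 0.040, adjusted p = 8.37e-07), and the largest of the 4 was seen where IL-33 and IL-17A were both present. There Ddit3 stood at 64.5, 68.6 and 64.9 TPM with all 3 cytokines, against 47.2, 38.4 and 39.4 TPM with IL-33+IL-17A. The libraries with all 3 cytokines were far above the others, at a log2 difference of 0.66 (SE 0.081, adjusted p = 4.09e-06). Of the exonic bases of Ddit3, 3.97% are shared with Mars1 on the opposite strand. The sources used here do not give the authors' handling of strand, so reads over those bases could belong to either gene. Mars1 stood at 42.9 to 53.1 TPM with all 3 cytokines and 43.0 to 44.6 TPM with IL-33+IL-17A.

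Asns, which makes asparagine from aspartate and glutamine, lies on chromosome 6 (chr6:7675169-7693254, minus strand). It stood at 31.3, 32.2 and 31.9 TPM with IL-13, against 18.6, 21.6 and 20.8 TPM in untreated cells. The groups were well apart, at a log2 difference of 0.62 (SE 0.062, adjusted p = 2.26e-07). Over all backgrounds Asns spanned 28.6 to 34.0 TPM with IL-13 (median 31.6) and 18.6 to 24.2 TPM without (median 21.5). The averaged log2 difference was 0.53 (SE 0.031, adjusted p = 3.47e-11), or 46.0%. The 4 backgrounds ranged in log2 difference from 0.37 beside IL-17A to 0.62 in otherwise untreated cells.

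Slc7a5, the LAT1 light chain that carries leucine and other large neutral amino acids, lies on chromosome 8 (chr8:121881150-121907694, minus strand). It stood at 7.68, 6.26 and 7.86 TPM with IL-13, against 3.44, 4.91 and 5.39 TPM in untreated cells. The groups did not overlap. The log2 difference was 0.58 (SE 0.140, adjusted p = 0.00351). Across all backgrounds Slc7a5 ran from 6.26 to 8.42 TPM with IL-13 (median 7.74) and from 3.44 to 5.49 TPM without (median 4.87), and the averaged log2 difference was 0.57 (SE 0.070, adjusted p = 1.28e-06). Atf4, Atf3, Asns and Slc7a5 were thus the genes of the set whose 12 libraries with IL-13 were all above the 12 without. Over all genes tested, 6.18% did so and 8.87% had all 12 libraries with IL-13 below the others.

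Chac1, which breaks down glutathione and is induced strongly in the Atf4 response, lies on chromosome 2 (chr2:119351229-119354381, plus strand). It stood at 12.4, 16.7 and 15.5 TPM with IL-13, against 8.33, 13.6 and 11.2 TPM in untreated cells. The groups overlapped, and the log2 difference of 0.41 (95% interval 0.07 to 0.76, adjusted p = 0.0669) was not called. Averaged over the backgrounds it was 0.52 (SE 0.082, adjusted p = 2.28e-05), and 11 of the 12 libraries with IL-13 were above all 12 without. Trib3, a pseudokinase that dampens Atf4 and Ddit3 activity, lies on the same chromosome (chr2:152337422-152344032, minus strand). Trib3 stood at 14.9, 15.2 and 18.6 TPM with IL-13, against 16.1, 16.2 and 16.3 TPM in untreated cells. The untreated values lay inside the range with IL-13, and the log2 difference was 0.00 (95% interval −0.19 to 0.19). Its averaged log2 difference was 0.17 (SE 0.044, adjusted p = 0.00400), or 13.4%. Without the 4 libraries whose title numbers lie outside the run of the other 20 (IL-33 replicate 3, IL-33+IL-17A replicates 2 and 3, IL-33+IL-13+IL-17A replicate 3), Trib3 was at 0.11 (adjusted p = 0.0656) and was not called.

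Ddit4 (REDD1), an inhibitor of mTORC1 signalling, lies on chromosome 10 (chr10:59949669-59951834, minus strand). It rested on few reads, from 2 to 17 per library. It stood at 5.34, 7.24 and 4.70 TPM with IL-13, against 2.43, 3.14 and 2.79 TPM in untreated cells. The groups did not overlap. The log2 difference was 0.82 (SE 0.290, adjusted p = 0.0387), and the call was lost under 7 of 33 alternatives, among them leaving out any 1 of the 3 untreated libraries or IL-13 replicate 1 or 2 (adjusted p up to 0.149). Averaged over the backgrounds it was 0.62 (SE 0.145, adjusted p = 0.00142), 84.8% more RNA. The log2 difference was 0.82 in otherwise untreated cells, 1.07 beside IL-17A and 0.71 beside IL-33+IL-17A, but −0.14 beside IL-33 (2.40 TPM with IL-33+IL-13 against 2.51 TPM with IL-33). In all, 10 of the 12 libraries with IL-13 were above all 12 without, while IL-33+IL-13 replicate 2 was the lowest library of all at 0.947 TPM.

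Sesn2, which senses leucine upstream of mTORC1 and is itself an Atf4 target, lies on chromosome 4 (chr4:132492032-132510501, minus strand). It stood at 11.3, 12.2 and 11.4 TPM with IL-13, against 11.4, 14.6 and 13.05 TPM in untreated cells. The groups overlapped. Averaged over the backgrounds the log2 difference was −0.09 (95% interval −0.18 to 0.00, adjusted p = 0.0877), so the interval holds no increase of the size seen for the other genes. Sesn2 was called lower without the 3 libraries that stood apart (−0.11, adjusted p = 0.0311), an alternative chosen after the data were seen, and also without Untreated replicate 1 or IL-13+IL-17A replicate 2 alone (adjusted p down to 0.0243).

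**Figure D2:**
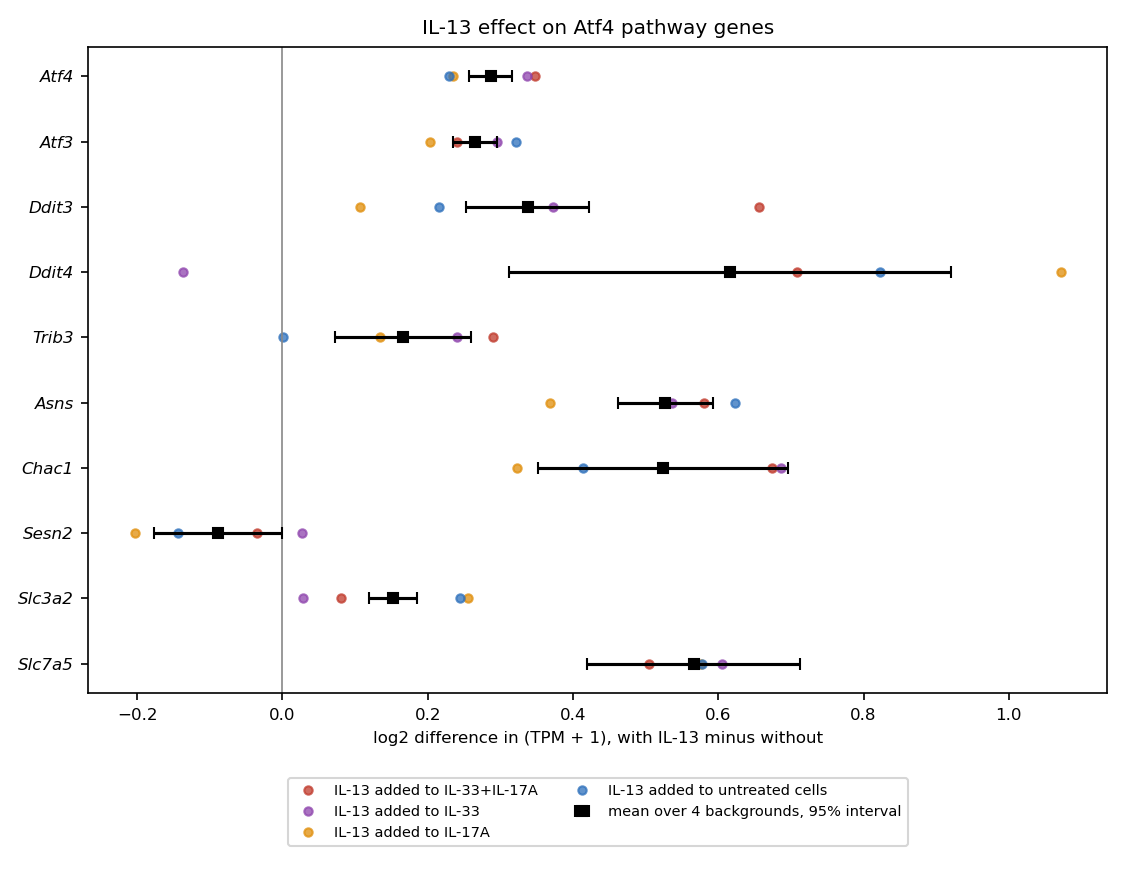
Log2 difference in TPM + 1 made by IL-13, for each gene: squares give the mean over 4 backgrounds with its 95% interval, and coloured points each background. All squares but that of Sesn2 lie right of 0; the points of Slc3a2 split into a pair near 0.25 without IL-33 and a pair of 0.03 and 0.08 with it.

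In otherwise untreated cells IL-13 raised 6 of the 10 genes (Atf4, Atf3, Ddit4, Asns, Slc3a2 and Slc7a5) and lowered none, where 14.1% of all genes were higher and 15.7% lower. IL-13+IL-17A raised 7 of 10 against untreated cells, with Ddit3 and Chac1 and without Ddit4 (background 13.99% higher and 15.5% lower). IL-33+IL-13 raised 6 of 10, with Ddit3 and Chac1 but neither Ddit4 nor Slc3a2 (background 11.1% higher and 13.95% lower). The 3 cytokines together raised 7 of 10, those 6 and Trib3 (background 10.3% higher and 17.7% lower), and 4 of 10 when the fit held only these groups. The Chac1 call with IL-13+IL-17A was lost without Untreated replicate 1 or IL-13+IL-17A replicate 1 (adjusted p = 0.0834 and 0.0799), and the Trib3 call with all 3 cytokines without Untreated replicate 2 or 3 or IL-33+IL-13+IL-17A replicate 3 (adjusted p = 0.0555, 0.0502 and 0.0956). These comparisons share the same untreated libraries, so their counts are not independent. Ddit3 sat close to the threshold with IL-13+IL-17A (log2 difference 0.22, adjusted p = 0.0450), and the call was lost under 20 of 33 alternatives (adjusted p up to 0.197), among them without any 1 of the untreated or IL-13 libraries.

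Beside other cytokines IL-13 raised 6 of 10 genes when added to IL-17A (background 12.2% higher, 17.6% lower) and 6 of 10 when added to IL-33 (background 11.2% higher, 12.8% lower). Added to IL-33+IL-17A it raised 7 of 10 (background 10.97% higher, 21.7% lower), but 4 of 10 without the 4 libraries with outlying title numbers. Single libraries decided 2 of these calls: Ddit4 added to IL-17A was lost without IL-13+IL-17A replicate 1 (adjusted p = 0.0509), and Trib3 added to IL-33+IL-17A without IL-33+IL-17A replicate 2 or IL-33+IL-13+IL-17A replicate 3 (adjusted p = 0.123 and 0.0758). No gene of the set was lowered in any of these. Atf4, Atf3, Asns and Slc7a5 were called in every background. The share of all genes higher in every background was not counted, and it cannot exceed the 10.97% higher beside IL-33+IL-17A. Without the 4 libraries with outlying title numbers, Slc7a5 lost its call beside IL-33+IL-17A (0.49, adjusted p = 0.150), as did Chac1 (adjusted p = 0.0544).

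Promoter sequence was looked at because the set was chosen around Atf4 and holds known targets of a shared site. Matches in the set therefore follow in part from that choice, and a part of the site in the effect of IL-13 was not tested. RefSeq promoter windows (GRCm38.p6, 250 bases before the start and the first 50 after it) were matched for 9 of the 10 genes, all but Slc7a5. The C/EBP-ATF response element, the composite site that Atf4 binds with C/EBP partners, was searched as TGATGNAA on both strands. It was found in 4 of the 9 windows, those of Asns, Atf3, Chac1 and Trib3, and in 3.97% of the 32851 promoter windows of the table. The 3 sites of Asns (positions −23 to −16), Atf3 (−110 to −103) and Chac1 (−193 to −186) lay before the RefSeq start. The site of Trib3 (15 to 22) lay after it. The sequences below show these sites in capitals on the strand of each gene, where the 3 genes other than Asns hold the reverse complement of the motif.
Asns, chr6:7693214-7693243, minus strand: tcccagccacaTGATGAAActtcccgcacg
Atf3, chr1:191183384-191183503, minus strand: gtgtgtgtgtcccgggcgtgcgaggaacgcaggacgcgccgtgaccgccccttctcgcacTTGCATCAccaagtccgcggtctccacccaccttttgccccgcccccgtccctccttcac
Chac1, chr2:119350992-119351111, plus strand: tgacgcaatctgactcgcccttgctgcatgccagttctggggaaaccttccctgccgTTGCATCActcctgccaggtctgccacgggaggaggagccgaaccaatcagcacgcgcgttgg
Trib3, chr2:152344028-152344057, minus strand: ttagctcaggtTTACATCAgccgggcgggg

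A palindromic cAMP response element (TGACGTCA, the same on both strands) was in 0 of the 9 windows and in 1.79% of all windows. The STAT6 site, searched on both strands as TTC and GAA parted by any 4 bases because STAT6 carries the IL-13 signal, was in the Chac1 window alone (−216 to −207), with no overlap with its C/EBP-ATF element, and in 6.95% of all windows. The endoplasmic reticulum stress element (CCAAT and CCACG parted by any 9 bases, both strands) was in 0 of 9 and in 0.119% of all windows. The RefSeq start of Atf3 lies within the longer gene span of the deposited table, so the window is that of 1 of its start sites. The gene spans of the deposited tables also begin elsewhere for Asns, whose site lies inside its span, and for Trib3, whose site lies outside its span, so the side of the start on which these sites lie depends on the annotation. A match gives letters in a window and no binding, and its absence says only that these letters are not there. The 4 genes with an element had averaged IL-13 log2 differences of 0.53 (Asns), 0.26 (Atf3), 0.52 (Chac1) and 0.17 (Trib3), and those without one ran from −0.09 (Sesn2) to 0.62 (Ddit4).

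**Figure D3:**
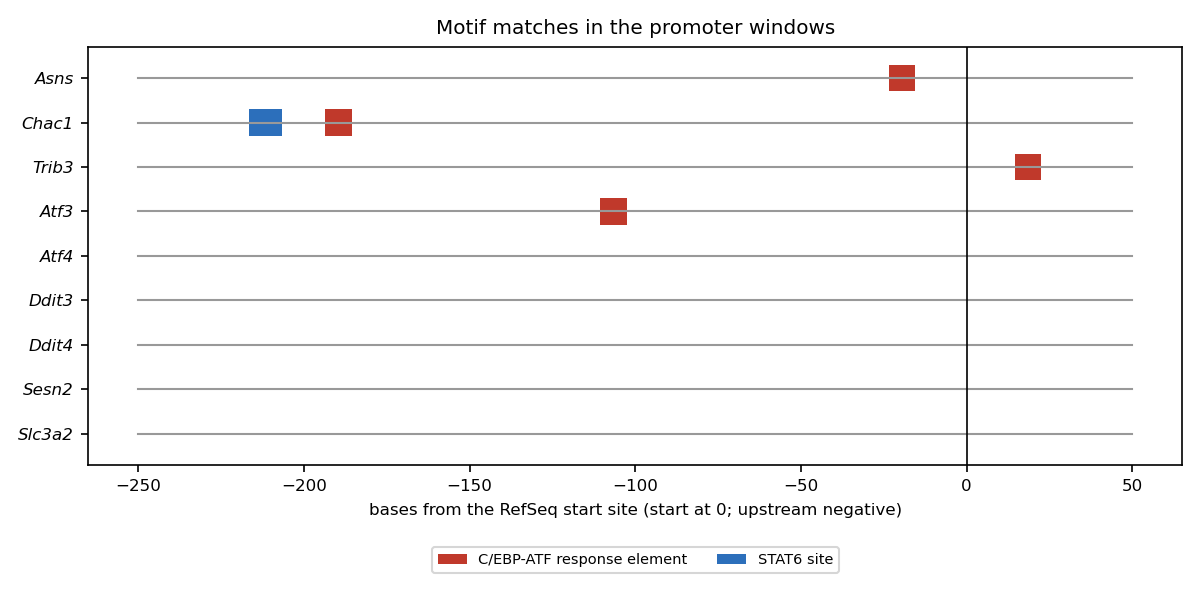
Position of motif matches in the promoter windows of 9 genes, in bases from the RefSeq start; red marks the C/EBP-ATF response element and blue the STAT6 site. The element lies at −23 to −16 in Asns, −110 to −103 in Atf3, −193 to −186 in Chac1 and 15 to 22 in Trib3.

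Without IL-13 the other cytokines left no called change in the set. IL-33, IL-17A and IL-33+IL-17A each had 0 of 10 genes called against untreated cells, and limma called 0% of all genes in each, with 484, 469 and 501 of the 13215 genes at an unadjusted p under 0.05. Voom with limma on recovered reads also called 0 genes in each. With IL-33, Atf4 stood at 1082, 1087 and 1063 TPM, inside the untreated range (log2 difference −0.01, 95% interval −0.07 to 0.05). With IL-17A, Asns stood at 21.2, 22.8 and 23.7 TPM, against 18.6, 21.6 and 20.8 TPM in untreated cells, a log2 difference of 0.14 (95% interval 0.01 to 0.27, adjusted p = 1). These intervals leave room for changes smaller than those made by IL-13 in the same genes. IL-17A beside IL-13, averaged over IL-33 present and absent, also gave 0 of 10 genes called and 0% of all genes, with 608 at an unadjusted p under 0.05.

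IL-33 changed the set in the presence of IL-13, in both directions. Slc3a2 was lower and Ddit3 and Atf4 were higher when IL-33 was added to cells that had IL-13, averaged over IL-17A present and absent. As background, IL-33 raised 2.53% of all genes and lowered 4.48%. Of the other 7 genes none was called, but some were under alternatives. Sesn2 was called higher under median-ratio scaling (0.19, adjusted p = 0.0198) and voom (0.21, adjusted p = 0.0194). Trib3 was called higher without IL-13 replicate 3 (adjusted p = 0.0298). Ddit4 was called lower with a pseudocount of 5 (adjusted p = 0.0350) and without IL-13+IL-17A replicate 2, IL-33+IL-17A replicate 3 or IL-33+IL-13 replicate 1. Added to IL-13 alone, IL-33 lowered 1 of 10 (Slc3a2) and raised 0 (background 0.832% higher, 1.74% lower). Added to IL-13+IL-17A, it raised 1 of 10 (Ddit3) and lowered 1 (Slc3a2), with a background of 1.15% higher and 2.40% lower. There Asns was called higher under median-ratio scaling (0.24, adjusted p = 0.0321) and voom (0.25, adjusted p = 0.0188). The granulocyte and mast cell marker sum was 94.98 to 127 TPM with all 3 cytokines and 84.8 to 94.5 TPM with IL-13+IL-17A, and 67.3 to 109 TPM with IL-33+IL-13 and 77.5 to 93.3 TPM with IL-13. The epithelial sum was 55.8 to 60.0 TPM with IL-33+IL-13 and 64.6 to 67.7 TPM with IL-13. The dissociation and immediate early sum was 3719 to 4002 TPM with IL-33+IL-13 and 3987 to 4043 TPM with IL-13, and in the presence of IL-13, IL-33 raised 0 and lowered 5 of these 18 genes. Of 18 alveolar macrophage genes it raised 2 and lowered 6. The part of these cells and genes in the effects of IL-33 was not tested.

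Slc3a2 (CD98 heavy chain, 4F2hc), the shared subunit that brings Slc7a5, Slc7a11 and other light chains to the cell surface, lies on chromosome 19 (chr19:8706882-8723369, minus strand). It stood at 239, 254 and 239 TPM with IL-33+IL-13, against 279, 289 and 279 TPM with IL-13. The 3 libraries with both cytokines were all below those with IL-13 alone and close to the untreated values of 231, 241 and 242 TPM. The log2 difference was −0.21 (SE 0.031, adjusted p = 0.000520), 13.5% less RNA, and in a fit of these groups alone it was not called (adjusted p = 0.0689). With all 3 cytokines Slc3a2 stood at 251, 253 and 248 TPM, against 272, 280.1 and 289.8 TPM with IL-13+IL-17A. These groups did not overlap either, at a log2 difference of −0.16 (SE 0.031, adjusted p = 0.00449), although this call was lost under median-ratio scaling (−0.10, adjusted p = 0.253) and voom (−0.10, adjusted p = 0.240). Averaged over both, the fall was −0.19 (SE 0.022, adjusted p = 1.56e-05).

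Seen from the other side, IL-13 raised Slc3a2 in the absence of IL-33 by a log2 difference of 0.24 against untreated cells (adjusted p = 5.40e-06) and 0.26 when added to IL-17A (adjusted p = 3.02e-06). Added to IL-33 the difference was 0.03 (95% interval −0.04 to 0.09, adjusted p = 0.598), and added to IL-33+IL-17A it was 0.08 (95% interval 0.02 to 0.15, adjusted p = 0.0554). The last was called under median-ratio scaling, under voom and without Untreated replicate 1 or IL-33+IL-13 replicate 2. The IL-33 effect with IL-13 minus that without it was −0.20 on the log2 scale (95% interval −0.26 to −0.13, adjusted p = 0.000766), the mean of −0.22 without IL-17A and −0.18 with it, and voom gave −0.15 (adjusted p = 0.0611). In this test of the difference 1.46% of all genes were positive and 2.11% negative.

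Slc7a5, the partner of Slc3a2 in the LAT1 transporter, was not called in the same comparison. It stood at 6.46, 8.38 and 8.31 TPM with IL-33+IL-13, against 7.68, 6.26 and 7.86 TPM with IL-13. The groups overlapped, with an averaged log2 difference of 0.04 (95% interval −0.17 to 0.25, adjusted p = 0.893). Of the other Slc3a2 partners 4 were tested. IL-13 raised Slc7a11 (xCT, the cystine importer) to 9.36 ± 2.30 TPM, against 5.28 ± 0.770 TPM without it (SD, n = 12 each), and Slc7a8 (LAT2) to 9.42 ± 1.17 TPM, against 8.29 ± 0.804 TPM (adjusted p = 4.34e-08 and 0.0351). Slc7a6 and Slc7a7 were not called.

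Slc7a11 was also lower where IL-33 joined IL-13. It stood at 7.24, 8.03 and 7.77 TPM with IL-33+IL-13, against 10.9, 11.9 and 10.7 TPM with IL-13. With all 3 cytokines it stood at 7.85, 5.09 and 7.87 TPM, against 11.9, 11.4 and 11.7 TPM with IL-13+IL-17A. In both comparisons the libraries with IL-33 were all below those without, at an averaged log2 difference of −0.59 (SE 0.095, adjusted p = 0.000403), and the difference between the IL-33 effects with and without IL-13 was −0.81 (adjusted p = 0.00110).

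**Figure D4:**
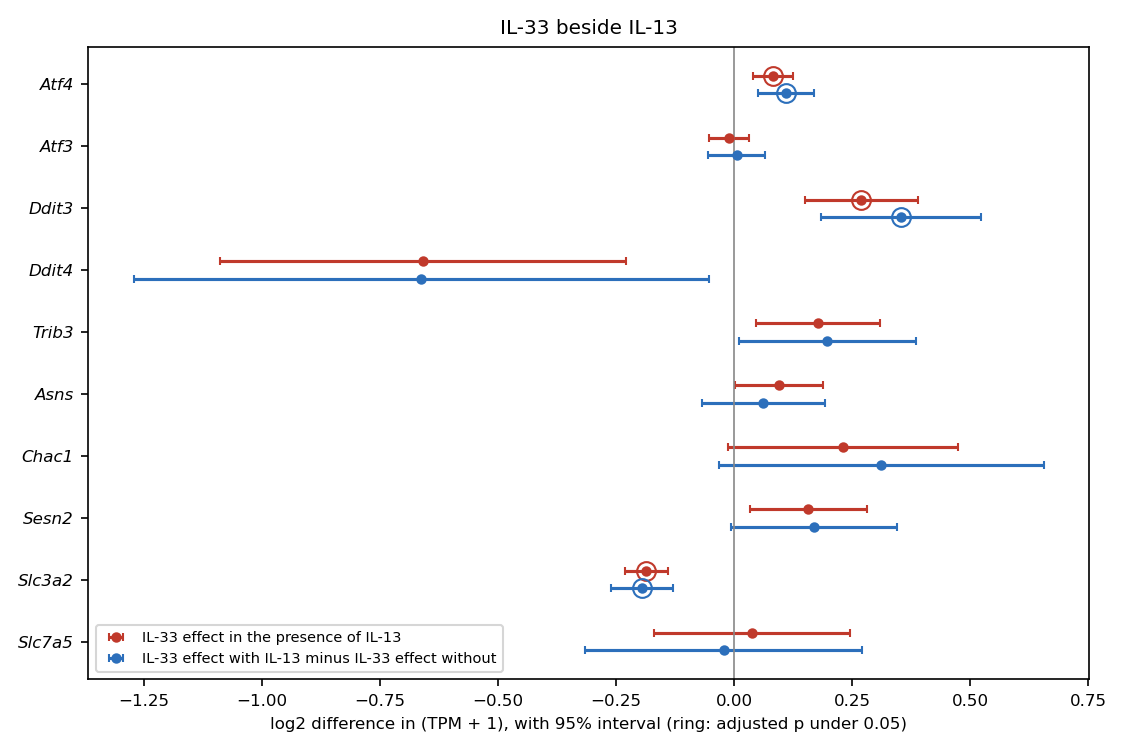
Log2 difference in TPM + 1 with its 95% interval for the IL-33 effect in the presence of IL-13 (red) and for that effect minus the IL-33 effect in its absence (blue); rings mark an adjusted p under 0.05. Slc3a2 lies left of 0 at −0.19 and −0.20, and Ddit3 (0.27 and 0.35) and Atf4 (0.08 and 0.11) lie right of it.

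Ddit3 was higher where IL-33 joined IL-13. It stood at 59.4, 55.4 and 60.5 TPM with IL-33+IL-13, against 52.1, 49.2 and 52.2 TPM with IL-13. These groups did not overlap, but the log2 difference of 0.19 (95% interval 0.02 to 0.36, adjusted p = 0.358) was not called. With all 3 cytokines Ddit3 stood at 64.5, 68.6 and 64.9 TPM, against 52.6, 55.6 and 46.5 TPM with IL-13+IL-17A. These groups were further apart, at a log2 difference of 0.35 (SE 0.081, adjusted p = 0.0168). Without IL-33+IL-13+IL-17A replicate 2 or IL-13+IL-17A replicate 3 this call was lost (adjusted p = 0.0794 and 0.109), as it was without the 3 libraries that stood apart (0.33, adjusted p = 0.0773) and in a fit of these groups alone (adjusted p = 0.171). Averaged over both it was 0.27 (SE 0.057, adjusted p = 0.00527). The IL-33 effect with IL-13 minus that without it was 0.35 (95% interval 0.18 to 0.52, adjusted p = 0.0162), the mean of 0.16 without IL-17A and 0.55 with it. Whether these 2 values differ was not tested, and without the 4 libraries with outlying title numbers their mean was 0.27 (adjusted p = 0.171).

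Atf4 was also higher where IL-33 joined IL-13, by a small percentage. It stood at 1341, 1409.6 and 1332 TPM with IL-33+IL-13, against 1298, 1291 and 1221 TPM with IL-13. All 3 libraries with both cytokines were above those with IL-13 alone. The averaged log2 difference was 0.08 (SE 0.020, adjusted p = 0.0145), or 5.90%, and it was not called under median-ratio scaling (0.11, adjusted p = 0.0877) or in a fit of the 4 groups with IL-13 alone (adjusted p = 0.0866). The IL-33 effect with IL-13 minus that without it was 0.11 (adjusted p = 0.0362), and 0.11 both with and without IL-17A, a call lost under 16 of 33 alternatives, 13 of them without 1 library each (adjusted p up to 0.203). Ddit4 stood at 4.03, 0.947 and 2.22 TPM with IL-33+IL-13, against 5.34, 7.24 and 4.70 TPM with IL-13. Its log2 difference of −1.08 (SE 0.290, adjusted p = 0.0574) was not called, on counts as low as 2 reads. It was called with a pseudocount of 5 and without IL-33+IL-17A replicate 3 or IL-33+IL-13 replicate 1.

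Levels could be set beside each other between genes only per length. Recovered reads per M reads were therefore divided by the exonic length of each gene in the GENCODE M21 annotation. In untreated cells Atf3 was highest at 212 ± 7.20 reads per exonic kb per M reads (SD, n = 3), then Slc3a2 at 108 ± 1.90 and Atf4 at 106 ± 2.58, whose ranges overlapped. Ddit3 (13.8 ± 0.229) and Asns (13.1 ± 0.497) overlapped as well. Sesn2 was at 6.72 ± 0.599, Trib3 at 4.91 ± 0.184, Slc7a5 at 3.18 ± 0.585 and Chac1 at 2.06 ± 0.421, the last of these next to Slc7a5 without overlap. Ddit4 was lowest at 0.334 ± 0.0317. The sources used here do not say whether intronic reads were counted. The span of Atf3 is 22.2 times its exonic length, so its level on this scale would be overstated the most if they were.

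The order of group means within a gene, with the overlap of neighbouring groups, is given as a description. Groups were ranked before their neighbours were compared, so a gap in the order is not a test. Some gaps below, for Asns and Ddit3, lie between groups that differ in IL-17A. For IL-17A beside IL-13, limma called 0 of the 10 genes and 0% of all genes. For Asns the order ran from 33.4 TPM with all 3 cytokines through 32.04 TPM with IL-33+IL-13, 31.8 TPM with IL-13 and 29.4 TPM with IL-13+IL-17A to 20.3 TPM in untreated cells. Neighbours without IL-13 overlapped, as did neighbours among the 3 highest groups, while IL-13+IL-17A lay apart from its neighbours on both sides. All 3 cytokines (33.1 to 34.0 TPM) and IL-13 (31.3 to 32.2 TPM), which are not neighbours, did not overlap. For Slc3a2 the gap in the order lay between IL-13+IL-17A (280.6 TPM) and all 3 cytokines (251 TPM). For Ddit3 the gap lay between all 3 cytokines (66.0 TPM) and IL-33+IL-13 (58.4 TPM), and all lower neighbours overlapped. For Sesn2 every group overlapped the next, from 13.6 TPM with IL-33+IL-13 to 11.5 TPM with IL-13+IL-17A.

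Other Atf4 targets moved with IL-13 in the same direction as the set. Of 34 tested, 26 were higher and 4 lower averaged over the 4 backgrounds, with a median log2 difference of 0.23. Of all genes 20.01% were higher and 30.9% lower. Psat1, which makes serine, stood at 22.3 ± 1.20 TPM with IL-13 and 10.2 ± 0.660 TPM without (SD, n = 12 each, adjusted p = 4.65e-16). Mthfd2, a mitochondrial folate enzyme, stood at 46.8 ± 1.27 TPM with IL-13 and 27.0 ± 1.64 TPM without (adjusted p = 1.14e-15). Herpud1, a factor of protein degradation at the endoplasmic reticulum, stood at 124 ± 2.94 TPM with IL-13 and 64.3 ± 2.61 TPM without (adjusted p = 1.14e-18). Ndrg1, also a hypoxia gene, went the other way, at 4.71 ± 0.555 TPM with IL-13 and 18.8 ± 1.13 TPM without (adjusted p = 6.83e-19). Cebpg, the C/EBP partner of Atf4, was among the 4 lower ones (127 TPM against 141 TPM, adjusted p = 0.000944).

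The Atf6 and Xbp1 arms of the unfolded protein response make folding enzymes and chaperones of the endoplasmic reticulum. Of 22 tested genes of these arms, 16 were higher with IL-13 and 1 lower, with a median log2 difference of 0.59. The shares of all genes were 20.01% higher and 30.9% lower. Pdia4, a disulfide isomerase, stood at 208 ± 12.5 TPM with IL-13 and 83.8 ± 4.08 TPM without (adjusted p = 4.78e-19). Sdf2l1 stood at 1777 ± 112 TPM with IL-13 and 940.1 ± 48.6 TPM without (adjusted p = 2.15e-16), Manf at 65.7 ± 3.09 TPM against 35.12 ± 1.496 TPM, and Pdia6 at 418 ± 15.5 TPM against 259 ± 7.24 TPM. The 1 lower gene was Atf6 itself (7.64 TPM against 9.27 TPM, adjusted p = 0.00117). In the presence of IL-13, IL-33 raised 4 of these 22 genes and lowered none (background 2.53% higher, 4.48% lower).

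Upstream of Atf4, 4 of 17 tested stress kinase and eIF2 genes were higher and 2 lower, with a median of 0.04. The share higher, 23.5%, was near the 20.01% of all genes, and 11.8% were lower against 30.9% of all genes. The 4 higher ones were subunits of eIF2 or of its exchange factor eIF2B. Eif2s2 stood at 55.0 ± 1.54 TPM with IL-13 and 45.6 ± 1.78 TPM without, Eif2s1 at 49.3 ± 2.23 TPM against 41.7 ± 1.15 TPM, and Eif2b1 at 33.9 ± 2.02 TPM against 27.0 ± 2.70 TPM (adjusted p = 2.92e-09, 6.09e-09 and 2.85e-06). Oma1, the mitochondrial protease that signals to Eif2ak1, was lower, at 6.04 ± 0.323 TPM with IL-13 and 7.48 ± 0.221 TPM without (adjusted p = 7.22e-08). Eif2ak3 (PERK), at 10.04 TPM with IL-13 and 9.50 TPM without, was not called (log2 difference 0.07, adjusted p = 0.319). Ppp1r15a (GADD34), the eIF2 phosphatase subunit that Atf4 signalling induces, stood at 108 TPM with IL-13 and 102 TPM without and was not called (adjusted p = 0.207).

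The dimer partners of Atf4 and Ddit3 were mixed, with 7 of 26 tested bZIP genes higher and 9 lower (median −0.03). These shares were near those of all genes, 20.01% higher and 30.9% lower. Among the lower ones were Nfe2l2, the factor of the oxidative stress response, at 90.2 ± 3.77 TPM with IL-13 and 119.7 ± 5.20 TPM without (adjusted p = 2.30e-11), and Cebpd at 35.6 ± 3.88 TPM against 54.1 ± 5.35 TPM (adjusted p = 4.34e-08). Among the higher ones, Batf3 stood at 20.7 ± 1.59 TPM with IL-13 and 4.29 ± 0.525 TPM without (adjusted p = 1.58e-16), Atf5 at 261 ± 12.4 TPM against 156 ± 6.18 TPM (adjusted p = 2.25e-15), Fos at 302 ± 25.2 TPM against 164 ± 10.9 TPM (adjusted p = 5.71e-14) and Cebpb at 5044 ± 207 TPM against 3686 ± 115 TPM (adjusted p = 5.03e-12). Among genes of mTORC1, the kinase complex that Ddit4 and Sesn2 restrain, 3 of 28 were higher and 15 lower (median −0.16). Rragd, a GTPase that recruits it to lysosomes, stood at 5.57 ± 0.925 TPM with IL-13 and 13.7 ± 1.17 TPM without (adjusted p = 1.65e-13). Its relative Rragc stood at 168 ± 9.98 TPM against 203 ± 5.76 TPM, Flcn at 74.9 ± 4.83 TPM against 97.7 ± 3.96 TPM and Lamtor3 at 120.3 ± 4.55 TPM against 135 ± 3.42 TPM. Among relatives of the 10 genes, 4 of 13 were higher and 3 lower (30.8% and 23.1%, median −0.01). Atf5 was the first of these by p, Trib1 was higher (18.6 ± 2.10 TPM against 14.2 ± 1.30 TPM), and Glul and Got1 were lower (306 TPM against 356 TPM and 49.5 TPM against 53.3 TPM).

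**Figure D5:**
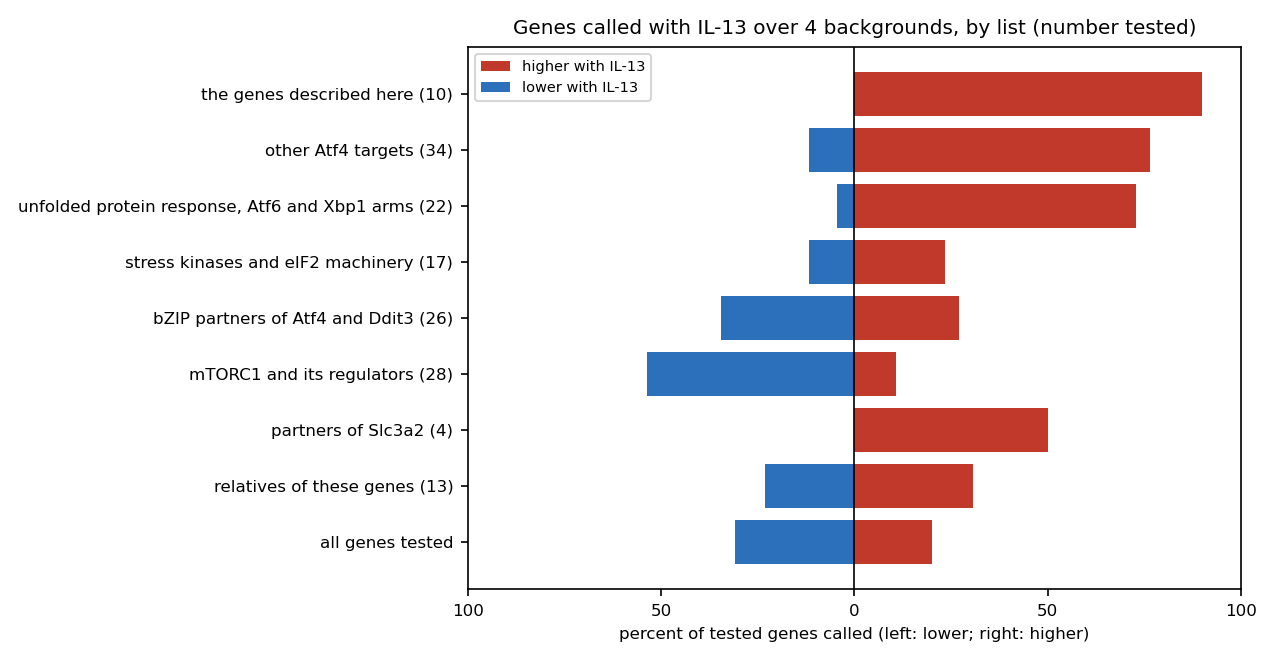
Percent of tested genes called higher (right) or lower (left) with IL-13 over 4 backgrounds, for the 10 genes, 7 lists around them and all genes tested. The bars for other Atf4 targets and the unfolded protein response lean right, that for mTORC1 leans left, and all genes show 20.01% higher and 30.9% lower.

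Genes that followed each of the 10 most closely over the 24 libraries were ranked by Pearson's r on the log2 scale, as a description; every library shares its treatment and depth with all genes in it. Spcs2 (r = 0.98) and Bex1 (r = 0.98) were most like Atf4, Surf4 (r = 0.98) and Atp5a1 (r = 0.98) most like Atf3, and Tubb5 (r = 0.98) and Nek6 (r = 0.97) most like Asns. Slc48a1 (r = 0.96) and G6pdx (r = 0.95) were most like Slc3a2, and Maged1 (r = 0.95) and Epas1 (r = 0.95) most like Slc7a5. Lower values were reached by the best matches of Chac1 (Lman2, r = 0.89, and Stt3b, r = 0.89), Ddit3 (Scimp, r = 0.88, and Ppib, r = 0.87), Ddit4 (Ptger2, r = 0.84, and Tma16, r = 0.78), Sesn2 (Ctsc, r = 0.77, and Hk3, r = 0.76) and Trib3 (Alg12, r = 0.73, and Fam241a, r = 0.71). Within the set Atf3 and Asns were the closest pair (r = 0.95), followed by Atf4 with Asns (r = 0.94) and Atf4 with Atf3 (r = 0.94), while Sesn2 had r of −0.61 with Ddit4 and −0.26 with Atf4. After the group means were removed, the r of Atf3 with Asns was 0.41, that of Atf4 with Asns 0.26 and that of Atf4 with Atf3 0.46. For the named matches outside the set it then ran from 0.22 (Ppib with Ddit3) to 0.83 (Maged1 with Slc7a5), with 0.56 for Spcs2 with Atf4.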

How the data were processed

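RNA of 24 libraries was sequenced. Replicate numbers follow accession order within a group and only name libraries. The submitters' processing notes name STAR and mm10. The STAR version was not given in the sources used here, nor were the counter and the strand setting. The authors deposited 1 TPM value per gene and library, over the gene span. TPM multiplied by the span came in whole steps, each worth 1 read, within 0.05 for 89.9% to 91.4% of the values that lay at or under 20 reads, and these steps gave the recovered reads.

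The test was limma-trend (limma 3.58.1, R 4.3.3; tables and motif searches in Python 3.11.15) on log2(TPM + 1), which understates the change of low genes. The 13215 genes that reached 1 TPM in 3 or more libraries entered 1 fit of 8 group means with 16 residual degrees of freedom, checked on simulated data. The plan was written for read counts; TPM values took this test instead. P-values were adjusted over all genes tested, in each of 16 comparisons. The median SE of a log2 difference was 0.102. The 33 alternatives were pseudocounts of 0.1 and 5, no filter, a filter at 5 TPM, median-ratio scaling, voom on recovered reads, a fit of the compared groups only, a fit without the 4 libraries numbered 30 and above in the titles, leaving out each of the 24 libraries, and a fit without the 3 libraries that stood apart. Members and lists were chosen with earlier results of these data known. Named genes were the 10, up to 4 called genes of each list with the smallest p for IL-13 over 4 backgrounds, and the 2 genes most alike; Eif2ak3, Ppp1r15a, Cebpg, Atf6, Slc7a6, Slc7a7, Nfe2l2, Cebpd, Pdgfra and Mars1 were named after their values were seen. Motif windows were RefSeq sequences. The other Atf4 target list held 47 symbols, of which 34 were tested.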

Additional observations from a re-analysis of the deposited data

Results flagged for a closer look

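For 3 of the 10 genes the effect of IL-33 was called different between cells with and without IL-13. The test was of the difference of the 2 effects, averaged over IL-17A present and absent. Of all genes 1.46% were positive and 2.11% negative in it. None of the 3 calls held under every alternative. Slc3a2 was not called under voom (adjusted p = 0.0611), nor Ddit3 without the 4 libraries numbered 30 and above (adjusted p = 0.171). The Atf4 call was lost under several alternatives, among them median-ratio scaling (adjusted p = 0.203). For Slc3a2 the difference was −0.20 on the log2 scale (limma adjusted p = 0.000766), the mean of −0.22 without IL-17A and −0.18 with it. Without IL-17A the mean values were 244 TPM with IL-33+IL-13 and 282 TPM with IL-13, beside 239 TPM with IL-33 and 238 TPM in untreated cells. For Ddit3 it was 0.35 (adjusted p = 0.0162), the mean of 0.16 without IL-17A and 0.55 with it. The mean values were 66.0 TPM with all 3 cytokines and 51.6 TPM with IL-13+IL-17A, beside 41.7 TPM with IL-33+IL-17A and 47.7 TPM with IL-17A. Without IL-17A they were 58.4 TPM with IL-33+IL-13 and 51.2 TPM with IL-13, beside 45.0 TPM with IL-33 and 44.0 TPM in untreated cells. For Atf4 it was 0.11 (adjusted p = 0.0362), and 0.11 in each IL-17A state. Without IL-17A the mean values were 1361 TPM with IL-33+IL-13 and 1270.1 TPM with IL-13, beside 1077 TPM with IL-33 and 1084 TPM in untreated cells. In each comparison of IL-33+IL-13 with IL-13, the 3 libraries of one group lay on the same side of all 3 of the other. The same libraries entered the test that picked these genes, so this is a description and no separate support. The share of all genes parted in this way was not counted. By limma only Slc3a2 was called in this comparison, and Ddit3 and Atf4 were not (background 0.832% higher, 1.74% lower).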

How the results depend on the processing

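Over 33 alternatives, 5147 of 5280 values for single genes stayed on the same side of the threshold, 75 lost and 58 gained a call. These values include the comparisons of IL-33, IL-17A and IL-33+IL-17A with untreated cells and of IL-17A beside IL-13, where no gene was called. They also include refits without a library outside the comparison, which leave the estimate unchanged. The number that stayed is therefore no measure of how firm the calls are. Direction was compared only for values called before or after the change, and 0 of these reversed. Values not called could change sign, as for Trib3 with IL-13 against untreated cells (log2 difference −0.096 to 0.055). The 9 genes raised by IL-13 over 4 backgrounds numbered 9 in each refit that left out 1 library. Without the 3 libraries that stood apart, chosen after the data were seen, 1 gene in place of 0 was lower with IL-13 against untreated cells, with IL-13+IL-17A against untreated cells, with IL-13 added to IL-17A (also 1 under voom) and with IL-13 over 4 backgrounds, and 1 was higher with IL-33 added to IL-13. With only the groups of the comparison, 4 genes in place of 7 were higher with all 3 cytokines, 0 in place of 1 lower with IL-33 added to IL-13, 0 higher and 0 lower with IL-33 added to IL-13+IL-17A, and 1 in place of 2 higher for IL-33 over both backgrounds with IL-13. Without the 4 libraries numbered 30 and above, 4 in place of 7 were higher with IL-13 added to IL-33+IL-17A and 0 in place of 2 in the difference of IL-33 effects. A pseudocount of 5 made 2 in place of 1 lower with IL-33 added to IL-13 and over both backgrounds. With IL-33 added to IL-13+IL-17A, median-ratio scaling and voom each gave 2 higher in place of 1 and 0 lower in place of 1, and leaving out the 3 libraries gave 0 higher; in the difference of IL-33 effects each gave 1 higher in place of 2, and voom 0 lower in place of 1. The cause of these shifts was not tested.

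Leaving out 1 library at a time gave 0 to 1 lower genes with IL-13+IL-17A, with IL-13 added to IL-17A and with IL-13 over 4 backgrounds. With IL-33 added to IL-13 it gave 0 to 1 higher and 1 to 2 lower, and with IL-33 added to IL-13+IL-17A 0 to 1 higher. Over both backgrounds it gave 1 to 2 lower, and in the difference of IL-33 effects 1 to 2 higher. Median-ratio scaling shifted the median of all genes by at most 0.09 on the log2 scale. No paired analysis was possible because the labels give no replicate numbers, and those used here only name the libraries of a group. Depth limits Ddit4 most, at 2 to 17 reads per library.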

Other observations

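Other stress-related lists moved with IL-13 over the 4 backgrounds without a common direction, where 20.01% of all genes were higher and 30.9% lower. Of 14 tested p53 targets 4 were higher and 9 lower. Gadd45a, a cell cycle brake, stood at 19.2 ± 2.42 TPM with IL-13 and 50.3 ± 6.97 TPM without (SD, n = 12 each, limma adjusted p = 4.76e-12), Bbc3, a promoter of cell death that Ddit3 also induces, at 7.52 ± 0.877 TPM against 14.98 ± 1.30 TPM (adjusted p = 3.61e-11), Bax at 344 ± 15.7 TPM against 393 ± 10.4 TPM and Btg2 at 139 ± 13.8 TPM against 169.9 ± 8.28 TPM. Of 11 tested hypoxia genes 4 were higher and 5 lower. Among the higher ones were Ldha at 781 ± 22.2 TPM with IL-13 and 422 ± 9.27 TPM without, Pgk1 at 199 ± 9.71 TPM against 119.6 ± 4.44 TPM and P4ha1 at 20.0 ± 1.26 TPM against 15.6 ± 0.731 TPM. Ndrg1 was among the lower ones, at 4.71 ± 0.555 TPM with IL-13 and 18.8 ± 1.13 TPM without. Of 18 tested dissociation and immediate early genes 7 were higher and 4 lower. Ier3 stood at 345 ± 32.1 TPM with IL-13 and 57.3 ± 5.16 TPM without (adjusted p = 1.26e-18), Myc at 116 ± 6.51 TPM against 43.4 ± 3.39 TPM and Klf4 at 75.2 ± 6.03 TPM against 34.3 ± 2.78 TPM.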
